A study of Mus musculus with 2 samples.

Results

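The heat shock proteins and chaperones examined here are 88 protein-coding genes out of 22028 protein-coding genes and 55536 genes in all. They were chosen by symbol: the Hsp genes, the Dnaja, Dnajb and Dnajc genes, Bag1 to Bag6, Cct2 to Cct8 and Tcp1, without Hspg2 and Hspbap1, which carry related symbols only. The samples were whole adrenal glands of 2 female B6CASTF1/J mice, the F1 hybrid of C57BL/6J and CAST/EiJ, aged 18 to 20 months, with no treatment named. Each gland gave 1 total RNA library, made from 300 ng of RNA with ERCC spike-ins, and both libraries belong to the same group. They are called animal 1 and animal 2 by their biological replicate numbers. The labels give the mice different numbers but list 1 donor identifier for both, and an entry of animal 2 repeats the name of animal 1. With 1 library per animal there is no test between them and no p-value: differences are given as ratios, set beside the deposited interval of each value and beside the same ratio over all genes.

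Chaperones bind unfolded or partly folded proteins and keep them from aggregating. Hsp70 proteins bind and release short stretches of a client in a cycle driven by ATP, J-domain proteins (the Dnaj families) bring clients and start that cycle, and nucleotide exchange factors such as the Bag and Hsp110 proteins end it. Hsp90 acts later on kinases and steroid receptors, the chaperonins fold proteins inside a closed chamber, and small Hsps hold clients without using ATP. Under heat and other protein stress the factor HSF1 binds heat shock elements, inverted repeats of a short GAA unit, and raises a subset of these genes. The adrenal cortex makes steroids in mitochondria and the endoplasmic reticulum, and each of these compartments has its own chaperone set.

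The libraries held 35769717 expected counts in animal 1 and 35135703 in animal 2. A gene with no count in such a library could still have had up to 3 counts, a CPM (counts scaled to the library total) of 0.0839 and 0.0854. Markers of the adrenal cortex (Star, Cyp11a1, Cyp11b1 and Hsd3b1) summed to 11805 and 14812 TPM (a level scaled by transcript length and to the library total) in animals 1 and 2. Of these, Star (2984 and 5374 TPM) and Hsd3b1 (3864 and 5118) were higher in animal 2, whereas Cyp11a1 (2335 and 2034) and Cyp11b1 (2622 and 2285) were lower. The 4 medulla markers summed to 1204 and 956 TPM, and 3 kidney markers to 0.20 and 0.01 TPM. Marker RNA of other tissues was also present, at unequal levels: 8 skeletal muscle markers summed to 168.5 TPM in animal 1 and 0.35 in animal 2, and 5 adipocyte markers to 3072 and 1938 TPM. In bulk tissue, fewer cells of a type and less RNA per cell cannot be told apart.

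Chaperone transcripts were abundant and most members were present. A TPM of at least 1 in both animals was met by 74 of the 88 members (84.1%), against 52.4% of all protein-coding genes. By mean TPM, 14 members reached 100 or more, 43 lay from 10 to 100, 18 from 1 to 10, and 13 below 1. All members together summed to 5193 TPM in animal 1 and 6507 in animal 2, a mean of 5850 ± 929 TPM (SD, n = 2). Within the nuclear protein-coding genes they made up 1.77% and 2.10% of TPM. The 10 most abundant members held 65.6% of the members' TPM in animal 1 and 63.6% in animal 2.

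By subfamily, the 14 Hsp70 and Hsp110 genes summed to 1485 TPM in animal 1 and 2227 in animal 2, the 11 chaperonin genes to 1283 and 1371, and the 3 Hsp90 genes to 1126 and 1374. The 28 Dnajc genes summed to 486 and 459.9 TPM, the 6 Bag genes to 279 and 361, the 4 Dnaja genes to 230.5 and 346, the 13 Dnajb genes to 155 and 195, and the 8 small Hsp genes to 134 and 159. Hspbp1, a nucleotide exchange factor of cytosolic Hsp70, stood at 13.5 and 14.4 TPM. The few Hsp70, chaperonin and Hsp90 genes thus held most of the RNA. The Dnajc subfamily had the most genes and was the only subfamily of these 9 with a lower sum in animal 2. Dnajc15 alone went from 150 TPM in animal 1 to 105 in animal 2, a larger fall than that of the whole sum. In the second quantification the Dnajc sums were 1230 and 1073 TPM, and Hspbp1 was also lower in animal 2, at 23.2 and 22.3.

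**Figure D1:**
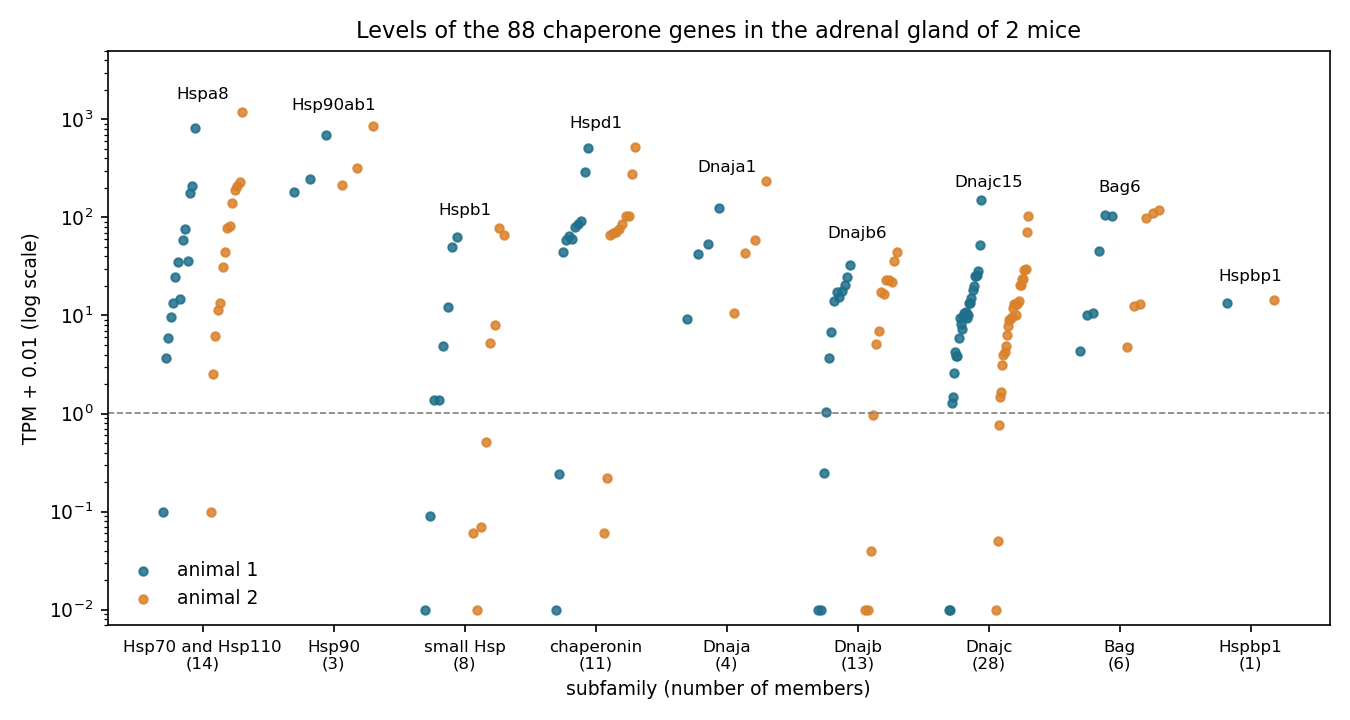
Level of each of the 88 members in animal 1 (blue) and animal 2 (orange), as deposited TPM plus 0.01 on a log axis, grouped by subfamily, with the most abundant member of each named and a dashed line at a TPM of 1. Hspa8, Hsp90ab1 and Hspd1 lead their subfamilies in both animals, and 3 members are at 0 in both.

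The most abundant member was Hspa8, the constitutive cytosolic Hsp70, on chr9:40800984-40810087, with 822 TPM in animal 1 and 1191 in animal 2. Hsp90ab1, the constitutive cytosolic Hsp90, on chr17:45567775-45573271, followed with 699 and 845 TPM. Hsp90aa1, the stress-responsive cytosolic Hsp90, stood at 246 and 316 TPM, so that Hsp90ab1 exceeded it 2.85-fold in animal 1 and 2.68-fold in animal 2 (2.20-fold and 2.33-fold in the second quantification). Their ratio moved less between the animals than the level of either gene did. On counts scaled by the trimmed mean of M-values (TMM), the log2 ratio of animal 2 over animal 1 was 0.44 for Hspa8, 0.24 for Hsp90ab1 and 0.30 for Hsp90aa1. Other cytosolic members of the Hsp70 group were lower: Hspa4, an Hsp110-type exchange factor, at 59.3 and 82.2 TPM, and Hspa12a, a divergent Hsp70, at 35.5 and 44.6. Hspa14, which works at the ribosome, stood at 9.71 and 11.3 TPM. Hspa12b, known from endothelium, stood at 3.70 and 2.54 TPM, and its TPM interval lay wholly higher in animal 1, as in 12.3% of all genes with at least 50 mean counts.

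A call was made where the TMM-scaled ratio was at least 2-fold, the mean count at least 50 and the deposited TPM intervals apart. Of the 76 members with enough counts, 4 were called, beside 3.46% of all 13569 genes with enough counts. Members higher in animal 2 were Hspa1b, Hspa1a and Bag3, beside 1.71% of all genes in that direction, and Hspb7 was higher in animal 1, beside 1.75% of all genes. The members' share, 5.26%, lay near the background, so the number of calls says nothing particular about chaperones. At 1.5-fold in place of 2-fold, the same rule called 8 of the 76 members (10.5%), 6 higher in animal 2 and 2 in animal 1. That share also lay near the background, 9.71% of all genes. Deposited TPM intervals that were apart were far more common than calls: 33 of the 76 members (43.4%) had them higher in animal 2, beside 20.7% of all genes, and 6 had them higher in animal 1, beside 12.3%. These shares were not matched for counts, on which the width of an interval depends. At least 200 mean counts were reached by 71 of the 76 members and 10580 of the 13569 genes. The intervals are also on TPM without TMM scaling, and nuclear protein-coding genes held 294171 TPM in animal 1 and 310087 in animal 2. The excess is therefore not read as a trait of chaperones. Over the 79 members with at least 10 mean counts the median log2 ratio was 0.03, beside -0.01 over all 17012 such genes. Scaling by the spike-ins moved the median of all genes to 0.21 and that of the members to 0.26, and it moved the calls over all genes from 232 higher in animal 2 and 237 in animal 1 to 393 and 153. Directions below are on the TMM scale, and the spike-in value is given where the direction of a list depends on it.

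Genes that heat and protein stress are known to induce were mostly higher in animal 2. The list of 14 holds Hspa1a, Hspa1b, Hsph1, Hsp90aa1, Dnajb1, Dnaja1, Dnajb4, Hspb1, Hspb8, Bag3, Hspd1, Hspe1 and Hspa4l, and also Hspa8, which is constitutive and which stress can raise further. Of these, 12 had a higher scaled count in animal 2, with a median log2 ratio of 0.48, against 0.03 for the 65 other members with at least 10 mean counts. For 11 of the 14 the deposited TPM intervals were apart and higher in animal 2, a state found in 33 of all 76 members and in 20.7% of all genes. As above, these shares were not matched for counts. Under the other scalings and the second quantification, 11 to 14 of the 14 were higher in animal 2, and the list median ran from 0.42 to 0.70. The list was drawn up with earlier results of these libraries known, so its count is a description and not independent evidence of its direction.

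Hspa1b, an inducible cytosolic Hsp70 on chr17:34956436-34959238, had 35.6 TPM in animal 1 and 192 in animal 2, a 5.21-fold difference in scaled counts. Its neighbour and near copy Hspa1a, on chr17:34969190-34972156, had 14.8 and 77.2 TPM, a 5.06-fold difference. Intervals of TPM ran from 33.6 to 36.2 and from 185 to 191 for Hspa1b, far apart compared with their widths. In Hspa1b 49.9% of all 100-base windows of its transcript also occur in Hspa1a, so the division of reads between the pair is uncertain. Their sum does not depend on that division: it was 50.3 TPM in animal 1 and 269 in animal 2, a 5.16-fold difference in scaled counts. Hspa1b over Hspa1a was 2.41 and 2.48 in the libraries of animals 1 and 2, and the pair's sum was 6.12% of the TPM of Hspa8 in animal 1 and 22.6% in animal 2. This ratio is taken within a library, so no scaling between libraries enters it, and the second quantification gave 6.54% and 23.6%.

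Bag3, a co-chaperone that links Hsp70 to small Hsps and to selective autophagy, on chr7:128523616-128546981, had 45.2 TPM in animal 1 and 99.5 in animal 2, a 2.13-fold difference. Dnaja1, a cytosolic J-domain partner of Hspa8, had 124 and 234 TPM, and Hsph1, the inducible Hsp110, had 77.0 and 139. Both lay just under the call, at 1.78-fold, and both passed it under spike-in scaling. Hspb8, the small Hsp that binds Bag3, had 50.3 and 78.7 TPM, a 1.52-fold difference. Dnajb1, the J-domain partner of inducible Hsp70, had 15.4 and 22.9 TPM, and Dnajb4, its relative, had 17.9 and 23.2. Hspa4l, an Hsp110-type gene, had 24.7 and 30.9 TPM.

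Not every inducible member followed. Hspb1, the small Hsp known as Hsp25 in mouse, had 63.7 TPM in animal 1 and 66.5 in animal 2, and its intervals overlapped. The mitochondrial chaperonin pair, which is also raised by heat, was level: Hspd1 had 508 and 517 TPM, and its co-chaperonin Hspe1 had 292 and 279, with log2 ratios of -0.02 and -0.11 (0.20 and 0.11 under spike-in scaling).

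**Figure D2:**
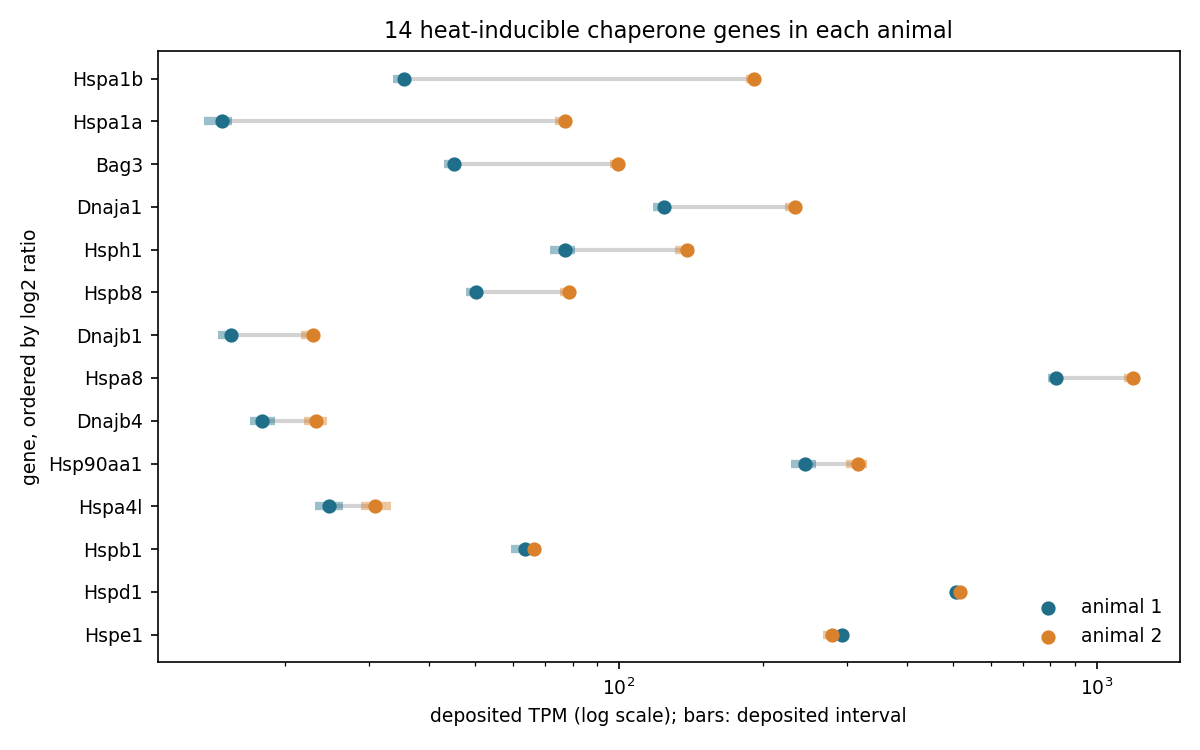
Deposited TPM of the 14 heat-inducible members in animal 1 (blue) and animal 2 (orange) on a log axis, with thick bars for the deposited interval and genes ordered by log2 ratio. Hspa1b and Hspa1a are furthest apart, and Hspb1, Hspd1 and Hspe1 nearly coincide.

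Stress-related genes outside the membership were read beside this list. Of 5 immediate early genes, all 5 had a higher scaled count in animal 2, summing to 39.2 TPM in animal 1 and 62.6 in animal 2, and Fosb, a transcription factor gene of this class, had 54 counts in animal 1 and 680 in animal 2 and passed the call. Their part in the difference of the heat-inducible list was not tested. Among 8 regulators of chaperone genes none was called and 6 were higher in animal 2 (7 under spike-in scaling). Atf4, the factor of the integrated stress response, had 44.9 and 83.0 TPM, Hsbp1, a binding partner of HSF1, had 55.9 and 56.9, and Xbp1, a factor of the unfolded protein response, had 44.95 and 62.2. Hsf1 itself had 13.4 TPM in animal 1 and 19.8 in animal 2, and Ddit3, a target of Atf4, had 16.1 and 18.8. Of 18 cytosolic co-chaperones with at least 10 mean counts, 12 were higher in animal 2, or 16 when scaled by the spike-ins. The call was met by Fkbp5, an Hsp90 partner of steroid receptors and a known glucocorticoid-induced gene, at 15.96 and 33.6 TPM. The 4 most abundant lay within 1.18-fold in scaled counts: Pfdn5 had 124 and 134 TPM, Fkbp4 110 and 106, St13 75.0 and 97.5, and Stip1 70.4 and 85.8.

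All genes with a promoter window were searched for the heat shock element, through which HSF1 is known to act. The search was chosen after the calls were known. Promoter windows of 300 bases (250 before and 50 after the start) came from RefSeq on GRCm38.p6, and 72 of the 88 members had at least 1. These are reference sequences: the alleles of these hybrid mice, including those from CAST/EiJ, were not examined. The strict element has 3 alternating units with 2 free bases between them (GAANNTTCNNGAA or its reverse complement TTCNNGAANNTTC, so that both strands are covered). It was in at least 1 window of 4 members, Hspd1, Hspe1, Hsph1 and Dnajb6. That is 5.56% of the members matched and 0.575% of all protein-coding genes matched. An element of 2 units (GAANNTTC or TTCNNGAA, which every strict element contains) was in 20 of the 72 members, or 27.8%, against 15.8% of protein-coding genes, and in 10 of the 12 heat-inducible members with a window. Of the 4 members with a strict element, 2 were higher in animal 2 and 2 in animal 1, and with the spike-ins as scale all 4 were higher in animal 2. Over all 17012 genes with at least 10 mean counts, 8290 were higher in animal 2 on the TMM scale and 12051 with the spike-ins. Hspd1 and Hspe1 share the same 2 matches, so these members are not separate cases. Elements with an imperfect unit were not searched for. Any link between the element and the ratios was not tested.

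The 250 bases before the starts of Hspa1b (chr17:34959239-34959488, minus strand) and Hspa1a (chr17:34972157-34972406, minus strand) are shown first, since these genes moved together. They are identical at 247 of 250 positions. Capitals mark the element of 2 units, at positions -104 to -97 from the start in each. Hspb1 (chr5:135887669-135887918, plus strand) is shown beside them as a heat-inducible member that was level, with 2 such elements.
Hspa1b: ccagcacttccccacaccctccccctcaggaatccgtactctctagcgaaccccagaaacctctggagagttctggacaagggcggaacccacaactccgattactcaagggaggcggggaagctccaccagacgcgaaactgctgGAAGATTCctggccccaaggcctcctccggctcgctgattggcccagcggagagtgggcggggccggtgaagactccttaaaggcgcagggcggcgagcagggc
Hspa1a: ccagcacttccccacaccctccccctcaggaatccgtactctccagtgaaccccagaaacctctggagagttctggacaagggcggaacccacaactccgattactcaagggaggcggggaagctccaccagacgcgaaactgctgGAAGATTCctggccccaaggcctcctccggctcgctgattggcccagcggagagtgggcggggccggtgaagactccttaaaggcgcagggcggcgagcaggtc
Hspb1: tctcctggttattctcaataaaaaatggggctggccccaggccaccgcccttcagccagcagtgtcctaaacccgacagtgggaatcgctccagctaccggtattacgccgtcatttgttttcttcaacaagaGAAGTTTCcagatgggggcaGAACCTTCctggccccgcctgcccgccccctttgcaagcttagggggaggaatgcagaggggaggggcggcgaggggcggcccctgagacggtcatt

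Hspd1 and Hspe1 lie on opposite strands of chromosome 1. The 215 bases shown (chr1:55087933-55088147, written on the minus strand, that of Hspd1) lie between the Hspe1 start and 1 of 2 RefSeq starts of Hspd1. Capitals mark 2 overlapping strict elements, at positions -144 to -127 from that Hspd1 start. The window of the other Hspd1 start (chr1:55088194-55088493) holds no element. For Hsph1 (chr5:149636280-149636309, minus strand) the strict element lies after the start, at positions 16 to 28, and for Dnajb6 (chr5:29735843-29735872, plus strand) at -46 to -34, and 30 bases around each are shown. Both genes have another RefSeq start, from which the same element lies at other positions. These windows carry the strict element in genes that were level between the animals (Hspd1 and Hspe1), nearly at the call (Hsph1) and slightly higher in animal 2 (Dnajb6, 33.0 and 44.1 TPM).
Hspd1-Hspe1: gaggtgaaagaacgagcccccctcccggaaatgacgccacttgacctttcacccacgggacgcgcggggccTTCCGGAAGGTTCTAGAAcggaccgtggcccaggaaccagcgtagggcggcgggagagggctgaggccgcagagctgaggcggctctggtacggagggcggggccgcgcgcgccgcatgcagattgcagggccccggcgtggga
Hsph1: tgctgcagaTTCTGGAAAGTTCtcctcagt
Dnajb6: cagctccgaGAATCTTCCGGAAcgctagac

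In the mitochondria, where the last and first steps of corticosteroid synthesis take place, no chaperone gene was called. The list of 8 summed to 1260 TPM in animal 1 and 1230.4 in animal 2, and 7 of 8 had a lower scaled count in animal 2, with a median log2 ratio of -0.12, while under spike-in scaling 7 of 8 were higher, with a median of 0.10, below the 0.21 of all genes. Hspd1 exceeded its partner Hspe1 1.74-fold in animal 1 and 1.85-fold in animal 2 (1.33-fold and 1.45-fold in the second quantification). Hspa9, the mitochondrial Hsp70 that pulls imported proteins through the inner membrane, had 207 and 230 TPM and the list's only positive log2 ratio, 0.09. Dnaja3, its J-domain partner, had 42.8 and 43.7 TPM. Dnajc19, part of the import motor, had 25.3 and 23.6 TPM, and Dnajc11, which belongs to the complex that shapes the inner membrane folds, had 25.5 and 23.6. Dnajc30 had 9.72 and 9.15 TPM. Dnajc15, a J-domain protein of the inner membrane, had the most different level in the list, 150 TPM in animal 1 and 105 in animal 2, a 1.42-fold difference with intervals apart. By gene TPM it was also the most abundant Dnajc gene, whereas by mean expected count Dnajc3 was higher (3621.5 against 3483.5). Most of the TPM of Dnajc15 lay in non-coding transcripts, as given below. Of 8 other mitochondrial co-chaperone and protease genes, none was called and 3 were higher in animal 2, whereas all 8 were under spike-in scaling, with a median of 0.21. Lonp1, the matrix protease, had 202 and 211 TPM, Trap1, the mitochondrial Hsp90, 58.5 and 70.2, Clpp 32.3 and 33.4, and Clpb 27.4 and 27.4.

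In the endoplasmic reticulum, Hsp90b1, the Hsp90 of that compartment, had 181 TPM in animal 1 and 212 in animal 2, and Hspa5, its Hsp70 and the classic target of the unfolded protein response, had 176 and 207. The ratio of Hsp90b1 to Hspa5 was 1.03 in both libraries, but 0.94 in animal 1 and 0.82 in animal 2 in the second quantification, where Hspa5 was the higher. The J-domain partners of Hspa5 were far lower: Dnajb11 had 20.5 and 21.8 TPM, Dnajc3 18.4 and 20.4, Dnajc10, which also reduces disulphides, 14.9 and 14.04, Dnajb9 14.2 and 17.2, and Dnajc1 10.8 and 11.8. Hspa13, an Hsp70-like protein of microsomes, had 13.5 and 13.4 TPM. No gene of the list of 8 was called, and 6 had a higher scaled count in animal 2 (4 when scaled by total counts or in the second quantification, 8 under spike-in scaling), with a median log2 ratio of 0.07. The 11 other folding genes of the compartment included 4 that were higher in animal 2, with a median log2 ratio of -0.11 (0.11 under spike-in scaling), and none was called. Among them Calr had 196 and 183 TPM, Canx 165 and 163, Pdia3 124 and 132, and Manf 91.7 and 82.0.

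The cytosolic chaperonin TRiC, which folds actin and tubulin, is a double ring of paralogous subunits present in equal numbers. Cct3 had 90.9 TPM in animal 1 and 104 in animal 2, Cct5 84.7 and 104, Cct7 79.5 and 85.1, and Tcp1 64.7 and 70.4. Lower values were found for Cct2, with 59.7 and 76.7 TPM, Cct8, with 59.2 and 69.1, and Cct4, with 44.2 and 65.8. The highest of the 7 subunits exceeded the lowest 2.06-fold in animal 1 and 1.59-fold in animal 2, a coefficient of variation of 24.1% and 19.7% around means of 69.0 and 82.1 TPM. The remaining subunit gene, Cct6a, is annotated as a processed transcript in the annotation used and so is no member, and it stood at 53.0 and 55.1 TPM, within the range of the others in animal 1 and below it in animal 2. The order of the subunits depended on the quantification: in the second, Cct3 had 109 and 118 TPM, below Cct2 (153 and 179), Cct8 (153 and 163) and Tcp1 (146 and 156) and the lowest of the 7 in animal 2, Cct5 led with 184 and 210.5, and Cct6a, with 125 and 127, lay within the range in both animals. All 8 subunit genes had a higher scaled count in animal 2 (7 of 8 when scaled by total counts or in the second quantification), with log2 ratios from 0.03 to 0.35 and a median of 0.21, and none was called. Cct6b, the testis counterpart of Cct6a, had 0.23 and 0.21 TPM, and Cct8l1 had 0 and 3 counts.

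Among the small Hsps, Hspb7 was the called member. Hspb7, a small Hsp of heart and skeletal muscle on chr4:141420779-141425311, had 143 counts in animal 1 and 6 in animal 2, or 1.38 and 0.06 TPM, a 20.9-fold difference. Other muscle-associated members had the same direction: Hspb2 had 29 and 8 counts (1.36 and 0.50 TPM), and Hspb6, which is also found in smooth muscle, had 12.2 and 7.95 TPM, a 1.58-fold difference with intervals apart. Hspb3 had 2 and 0 counts, both under the limit of 3, and Hspb8 was higher in animal 2. Cryab, a small Hsp by sequence and no member by symbol, had 14.9 TPM in animal 1 and 7.89 in animal 2. Skeletal muscle markers moved the same way, with all 8 of 8 called and higher in animal 1. In animal 2, Ckm, Myh2, Myh4 and Atp2a1 had no counts, and Acta1 had 3300 counts in animal 1 and 4 in animal 2. The part of skeletal muscle RNA in the Hspb7 difference was not tested. Of the remaining small Hsps, Hspb11, which despite its symbol is a subunit of the ciliary transport complex, had 4.93 and 5.21 TPM, and Hspb9 had 0 and 1 count.

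**Figure D3:**
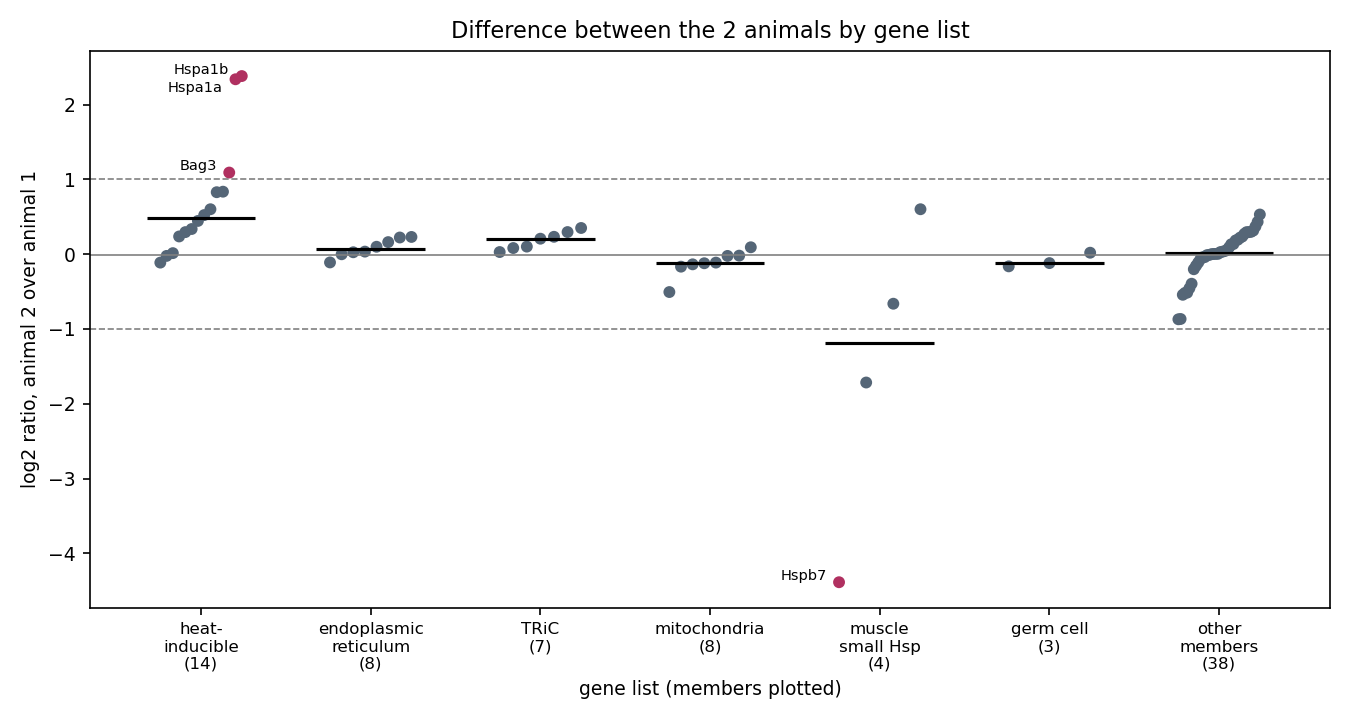
TMM-scaled log2 ratio of animal 2 over animal 1 for members with at least 10 mean counts, by gene list, with black lines for list medians, a grey line for the median of all genes and dashed lines at 2-fold, and called members named in red. Hspb8, Hspd1 and Hspe1 stand in more than 1 of the lists plotted. Hspa1a, Hspa1b and Bag3 lie above the upper line, Hspb7 and Hspb2 below the lower one, and Hspb2 had under 50 mean counts.

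Of the other Dnaj genes, Dnaja2, a cytosolic partner of Hspa8, had 54.1 TPM in animal 1 and 58.1 in animal 2, and Dnaja4 had 9.24 and 10.5. In the Dnajb family Dnajb6, which suppresses aggregation of polyglutamine proteins, had 33.0 and 44.1 TPM, and Dnajb2, known from neurons, had 24.8 and 35.8. Dnajc7, a J-domain protein with tetratricopeptide repeats that binds Hsp70 and Hsp90, had 52.5 and 71.7 TPM, and Dnajc8, a spliceosome-associated protein, 28.6 and 29.5. Among the genes of vesicles and clathrin, Dnajc5, the cysteine string protein of secretory vesicles, had 25.7 and 29.3 TPM and Dnajc13, an endosomal protein, 10.2 and 13.1. Dnajc6, the auxilin that recruits Hsp70 to clathrin coats and is known mainly from neurons, had 2.58 and 1.63 TPM, a 1.83-fold difference, but its intervals overlapped. Medulla markers, which include the chromaffin cells' enzymes, had a lower TPM in animal 2 in 4 of 4 cases, and their part in the level of Dnajc6 was not tested. Across the 26 Dnajc genes with at least 10 mean counts, 18 had a lower scaled count in animal 2, with a median log2 ratio of -0.09, whereas under spike-in scaling 19 were higher, and none was called.

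The Bag genes, most of which share the domain that opens Hsp70, were all detected. Bag1 had 105 and 112 TPM, and Bag6, which delivers tail-anchored proteins and has a BAG-like domain, had 104 and 119. Bag5 had 10.6 and 13.2 TPM, Bag4 had 10.01 and 12.6, and Bag2, an exchange factor that restrains the ubiquitin ligase Stub1, had 4.34 and 4.73. Bag3 apart, the scaled ratios of this family lay within 1.23-fold.

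Members known from germ cells were low. Of 11 such members only Hspa2, a testis-enriched Hsp70 that is also expressed elsewhere, reached a TPM of 1 in both animals, with 5.93 and 6.21 TPM. Dnajb3 had 1.03 and 0.95 TPM, Dnajb13, a sperm flagellum protein, had 13 and 2 counts, and Hspa1l, the third gene of the Hspa1a cluster, had 8.5 and 7.47. Dnajc5b had 0 and 1 count. Dnajb7, Dnajb8 and Dnajc5g had no count in either animal. Expression of these 3 genes was not detectable at this depth.

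Transcript composition was read for the 52 members with at least 1000 mean counts, of which 48 have more than 1 annotated transcript. All 88 members together have 457 annotated transcripts, 247 of them protein-coding. In 34 of the 48 the same transcript led in both animals and in both quantifications. For 15 members at least 20% of the gene's TPM fell in transcripts not annotated as protein-coding in both animals, and for 11 of these the second quantification gave at least 20% as well. Dnajc15 was the most extreme, with 94.7% and 94.2% of its TPM in non-coding transcripts. Its leading transcript, Dnajc15-203, is a processed transcript of 419 bases with 57.5% and 56.4% of TPM, whereas its coding transcript, Dnajc15-202, is 6193 bases long and held 5.27% and 5.78% of TPM. TPM divides by length, and in expected counts the coding transcript held 44.7% and 47.0% of the gene. The gene level of Dnajc15 given above is therefore mostly short non-coding transcripts.

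In other members the leading transcript was non-coding as well: Cct7-202, a transcript marked for nonsense-mediated decay, held 43.8% and 44.6% of Cct7, and Dnajc5-204, of the same class, 39.3% and 39.5% of Dnajc5. Dnaja1-206, a processed transcript, held 35.2% and 38.8% of Dnaja1 but 0 in the second quantification. In 7 members the leading transcript differed between the quantifications in both animals: Cct8, Dnaja1, Dnajc11, Dnajc7, Hspa8, Hsph1 and Tcp1. For Hspa8 the first quantification placed 45.4% and 43.8% in Hspa8-202 and the second 0.20% and 0.08%, with Hspa8-201, another coding transcript, leading there at 77.6% in animal 1. Hsph1-211 held 45.6% and 45.02% in the first and 12.02% and 13.1% in the second. Cct8-201 held 50.4% and 44.0% against 19.9% and 17.4%, and Tcp1-209 held 64.0% and 65.1% against 21.99% and 19.95%. Shares of single transcripts in these genes thus depended on the quantification, while Hspa1a, Hspa1b, Bag3 and Dnajc3 have 1 annotated transcript each.

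Transcripts with retained introns took a larger share in animal 2. Over the 31 members with at least 1000 mean counts and an annotated retained-intron transcript, the share was higher in animal 2 in 29, with medians of 2.31% in animal 1 and 4.08% in animal 2. The same direction held in 78.9% of all 3482 such protein-coding genes, with medians of 4.11% and 6.47%, so the shift was not limited to chaperones. The second quantification also gave 29 of the 31 members, with medians of 1.66% and 4.72%, and 75.9% of all genes.

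**Figure D4:**
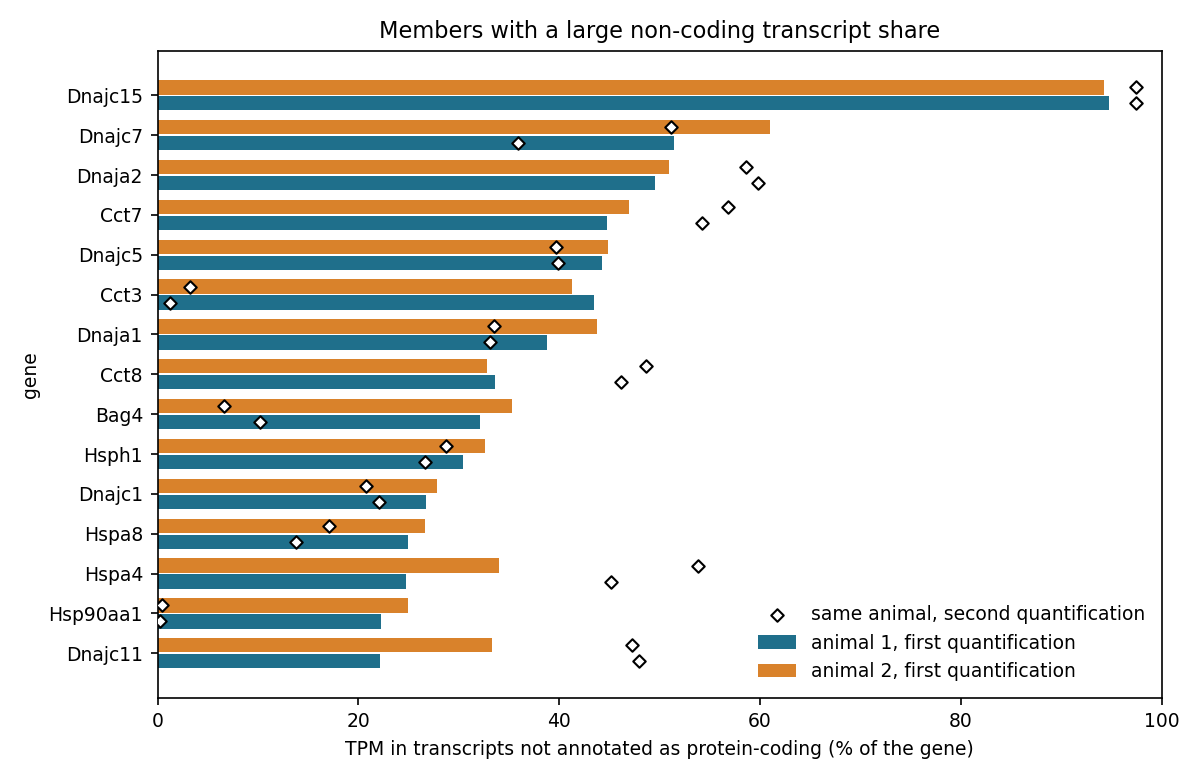
Share of a gene's TPM in transcripts not annotated as protein-coding (percent, from 0 to 100) for the 15 members with at least 20% in both animals, as bars for animal 1 (blue) and animal 2 (orange) in the first quantification and diamonds for the second. Dnajc15 is above 94% in all 4 values, and Cct3, Bag4 and Hsp90aa1 fall to at most 10.2% in the second.

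Levels of the members were higher in the second quantification, which assigns a larger share of TPM to nuclear protein-coding genes. The members furthest apart, by log2 of second over first TPM with 1 added to each, were Dnajc11 (1.92), Dnajc15 (1.56), Dnajc8 (1.48), Dnajc18 (1.38) and Dnajb2 (1.37). Dnajc18, a little studied J-domain gene, had 10.7 and 9.55 TPM in the first and 31.4 and 24.3 in the second. Dnajc11, at 25.5 and 23.6 TPM in the first, had 106 and 85.7 in the second.

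Shared sequence limits some values. Of the 88 members, 63 share no 100-base window with another gene, and 8 share at least 10% of their windows. Besides Hspa1b and Hspa1a (48.6%), these are Hspb1 (44.0%, all with the pseudogene Hsp25-ps1), Hsp90aa1 (38.0%), Hspa8 (28.2%), Hspd1 (23.4%), Dnajb6 (14.6%) and Hspe1 (10.04%). Reads from such windows can be split between the member and its copy, which makes the levels of these 8 less certain. Whether the deposited intervals cover that uncertainty was not tested. Bag3 and Hspb7, the called members outside the Hspa1 pair, are not among them.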

How the data were processed

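Total RNA of 2 adrenal glands was measured in 1 library each. Per the deposited file headers and notes, the authors' first gene and transcript tables hold expected counts, TPM, interval bounds of TPM (kept as a score, since no level is given) and the percent of each gene's TPM in a transcript, on mm10 with GENCODE M21. A second deposited transcript table holds estimated counts and TPM and was summed per gene. No header or label used here names the aligner or the programs. Members were matched by symbol and biotype, and 17 matched symbols were left out as not protein-coding (16 processed pseudogenes and Cct6a). The members, lists and rules for named genes were chosen with earlier results of these data known. Genes named are the 10 most abundant, the top 4 of each subfamily (all where it has at most 12), all called members, all members of the lists, the 5 furthest apart between the quantifications and those whose leading transcript differed; other members and Hsf1, Cryab and Acta1 are examples chosen after their values were seen.

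Expected counts were rounded and scaled by TMM (edgeR 4.0.16, R 4.3.3), and log2 ratios of animal 2 over animal 1 used a pseudocount of 0.5. Alternatives were DESeq2 1.42.0 size factors, 96 ERCC spike-ins, total counts and TPM. No test was run, since 1 library per animal leaves no replicate. The ratio and call steps were run on simulated counts with planted changes, with simulated counting intervals in place of the deposited ones. That run checks the calculation only and not the differences between these animals. The deposited TPM lay outside its own interval for 9 members in animal 1 and 10 in animal 2. Values above the upper bound exceeded it by at most 0.87%. Some low values lay further below the lower bound, such as Dnajb13 in animal 2, at 0.03 TPM against a bound of 0.0366. Entries without a gene (26248 with a number as name) held 1.05e-05% and 1.14e-05% of counts. Counting limits cover counting error only. Tables were handled with pandas 2.3.3 on Python 3.11.15.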

Additional observations from a re-analysis of the deposited data

Results flagged for a closer look

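Pseudogene entries whose symbols match the chaperone names but which are not protein-coding held counts above the limit of 3 in both animals, and no comparison above uses them. Hsp25-ps1, a processed pseudogene of Hspb1 on chr13:45078498-45079127, had 177.47 and 119.02 expected counts in animals 1 and 2, beside 1992 and 1899 for Hspb1. Hspd1-ps3, a processed pseudogene of Hspd1 on chr11:41498737-41500458, had 234.01 and 264.31, beside 45661 and 42426 for Hspd1. Hspd1-ps4, on chr4:106136111-106137778, had 19 and 16. Of the windows of Hspb1, 44.0% also occur in Hsp25-ps1, and of those of Hspd1, 22.4% occur in Hspd1-ps3. Whether these reads came from the pseudogenes or from the parent genes was not tested.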

How the results depend on the processing

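With 2 animals and 1 library each, no value has a replicate check, and leaving out an animal leaves no ratio. The mean summed TPM of the members, 5850, was 11281 in the second quantification and 19318 when TPM was rescaled over nuclear protein-coding genes. It ran from 5193 to 6507 with either animal left out, and was 4943 over protein-coding transcripts only, an alternative chosen after seeing the data. The number of members detected in both animals, 74, ran from 64 to 77 over the other thresholds, 76 in the second quantification, and from 74 to 78 with either animal left out. The number at least 2-fold apart, 4, was 8 at 1.5-fold (beside 9.71% of all genes), 6 under spike-in scaling (4.02%, adding Dnaja1 and Hsph1) and 3 or 4 in the 9 other alternatives; a mean count of at least 200 left out Hspb7, and 3-fold left out Bag3. The median log2 ratio, 0.03, was 0.26 under spike-in scaling and stayed within 0.1 of its value elsewhere, at -0.02 when scaled by total counts. No called member changed direction. The replicate numbers name animals of 1 group. No paired analysis was possible because the labels give no second group.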
